A study of Homo sapiens with 6 samples.

Results

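The imprinted interval of human chromosome bands 15q11 to 15q13 was described in chromatin immunoprecipitation sequencing (ChIP-seq) of the kinase CDK2 and of PARP1, an enzyme that builds poly(ADP-ribose) on target proteins. Its members were the windows of 10 kb on chromosome 15 that lie between 22700001 and 28710000 (1-based, hg19) and hold a mean of at least 10 reads over the 6 libraries. These were 547 of the 601 windows of the interval, and 547 of 278395 windows compared along chromosomes 1 to 22 and X. The cells were T47D-MTVL, derived from the breast cancer line T47D and holding a chromosomal reporter gene under the mouse mammary tumour virus promoter. All were first kept in hormone-depleted serum and then without serum. The CDK2 and the PARP1 antibody were each used on cells without hormone (0 min) and on cells given 10 nM R5020, a synthetic progestin, for 5 and for 30 min. Each antibody and time had 1 library, so each comparison below sets 2 libraries side by side and carries no error between replicates.

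The interval is known for genomic imprinting, in which a gene is expressed from the copy of one parent only. MKRN3, MAGEL2, NDN, SNRPN with SNURF, and the long non-coding SNHG14, host of many small nucleolar RNAs, are expressed from the paternal copy. UBE3A, a ubiquitin ligase, is expressed in neurons mainly from the maternal copy. Loss of the paternal genes is associated with Prader-Willi syndrome and loss of maternal UBE3A with Angelman syndrome. The 17 genes named here were all found in RefSeq (GRCh38.p14). There NIPA1 and NIPA2, magnesium transporters, CYFIP1, a regulator of actin assembly, and TUBGCP5, of the gamma-tubulin complex, lie nearest the centromere. MKRN3, MAGEL2, NDN, NPAP1, SNHG14 with SNRPN and SNURF, and UBE3A follow. Farther along lie ATP10A, a phospholipid transporter, GABRA5 and GABRG3, subunits of the GABA-A receptor, OCA2, a melanosome protein of pigmentation, and HERC2, a large ubiquitin ligase. That table is of another build than the counts, so no window was given to a gene and positions stand for themselves.

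The 6 libraries held between 40097131 and 63448449 reads, and 0.183 to 0.194% of them fell on the members. The mean member window held 151, 199 and 142 reads in CDK2 at 0, 5 and 30 min, and 191, 203 and 218 reads in PARP1. As a level, meaning the mean over that of all compared windows of the same library, this was 0.934 to 0.985. The median member lay on the other side of the genome, with 162, 192 and 142 reads in CDK2 and 204, 209 and 232 in PARP1, which is 1.04 to 1.12 times the genome median. Evenness differed between libraries. The dispersion sets the robust variance between adjacent windows against what Poisson counting alone would give, so independent reads at an even level have 1. It was 6.93, 49.7 and 26.3 within the interval for CDK2 at 0, 5 and 30 min. For PARP1 it was 7.35, 13.4 and 9.16. Genome-wide it was 7.43, 52.2 and 24.0 for CDK2 and 6.11, 11.4 and 8.62 for PARP1. Intervals called widened below allow for this genome-wide dispersion of the single libraries.

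Coverage along the interval changed in steps that were present in every library. A stretch of 490 kb from 24330001 to 24820000 held 49 windows, all of them members, at a level of 0.309 to 0.357. Within it the mean window held 55.3, 64.1 and 49.7 reads in CDK2 at 0, 5 and 30 min and 71.4, 73.3 and 75.8 in PARP1. In the 40 windows within 200 kb on either side it held 179, 224 and 150 reads in CDK2 and 216, 228 and 236 in PARP1. The stretch therefore stood at 0.286 to 0.332 of its flanks in the 3 CDK2 libraries and at 0.321 to 0.330 in the 3 PARP1 libraries, with widened 95% intervals between 0.214 and 0.418 in all 6. No shift against the flanks between times was detectable at this depth. The ratio over flanks was 0.973 (widened 0.827 to 1.15) for PARP1 at 5 against 0 min and 0.973 (0.840 to 1.13) at 30 against 0 min. For CDK2 it was 0.927 (0.675 to 1.27) and 1.08 (0.829 to 1.395). Without an input library, DNA copy number, read mapping and occupancy cannot be told apart in a level.

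Of the 54 windows below the limit of 10, 10 were empty in all 6 libraries. They formed 4 stretches, at 22700001 to 22750000, 23190001 to 23200000, 23260001 to 23610000 with 35 windows, and 13 windows from 28570001 on. The sources used here do not say how reads with several matches were handled. Just outside the limit lay 28610001 to 28620000 with a mean of 9.83 reads, and just inside lay 23250001 to 23260000 with 11 reads. The sparse part was wider than the excluded windows. From 23090001 to 23620000 the level of all 53 windows was 0.0449 to 0.0649, and 17 of them were members.

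Away from these stretches the level was near or above that of the genome. The longest run of windows without a low value, 1920 kb from 25510001 to 27430000, stood at 1.06 to 1.11 in all 6 libraries, and the 1000 kb from 27440001 to 28440000 at 1.08 to 1.201. In segments of 0.5 Mb the mean level of the members ran from 0.296, in CDK2 at 0 min at 23200001 to 23700000, to 1.28, in CDK2 at 30 min at 25700001 to 26200000. In this last segment the level was 1.08, 1.08 and 1.28 in CDK2 at 0, 5 and 30 min and 1.07, 1.23 and 1.16 in PARP1. The limits of these stretches and segments were chosen after the profile had been seen.

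**Figure D1:**
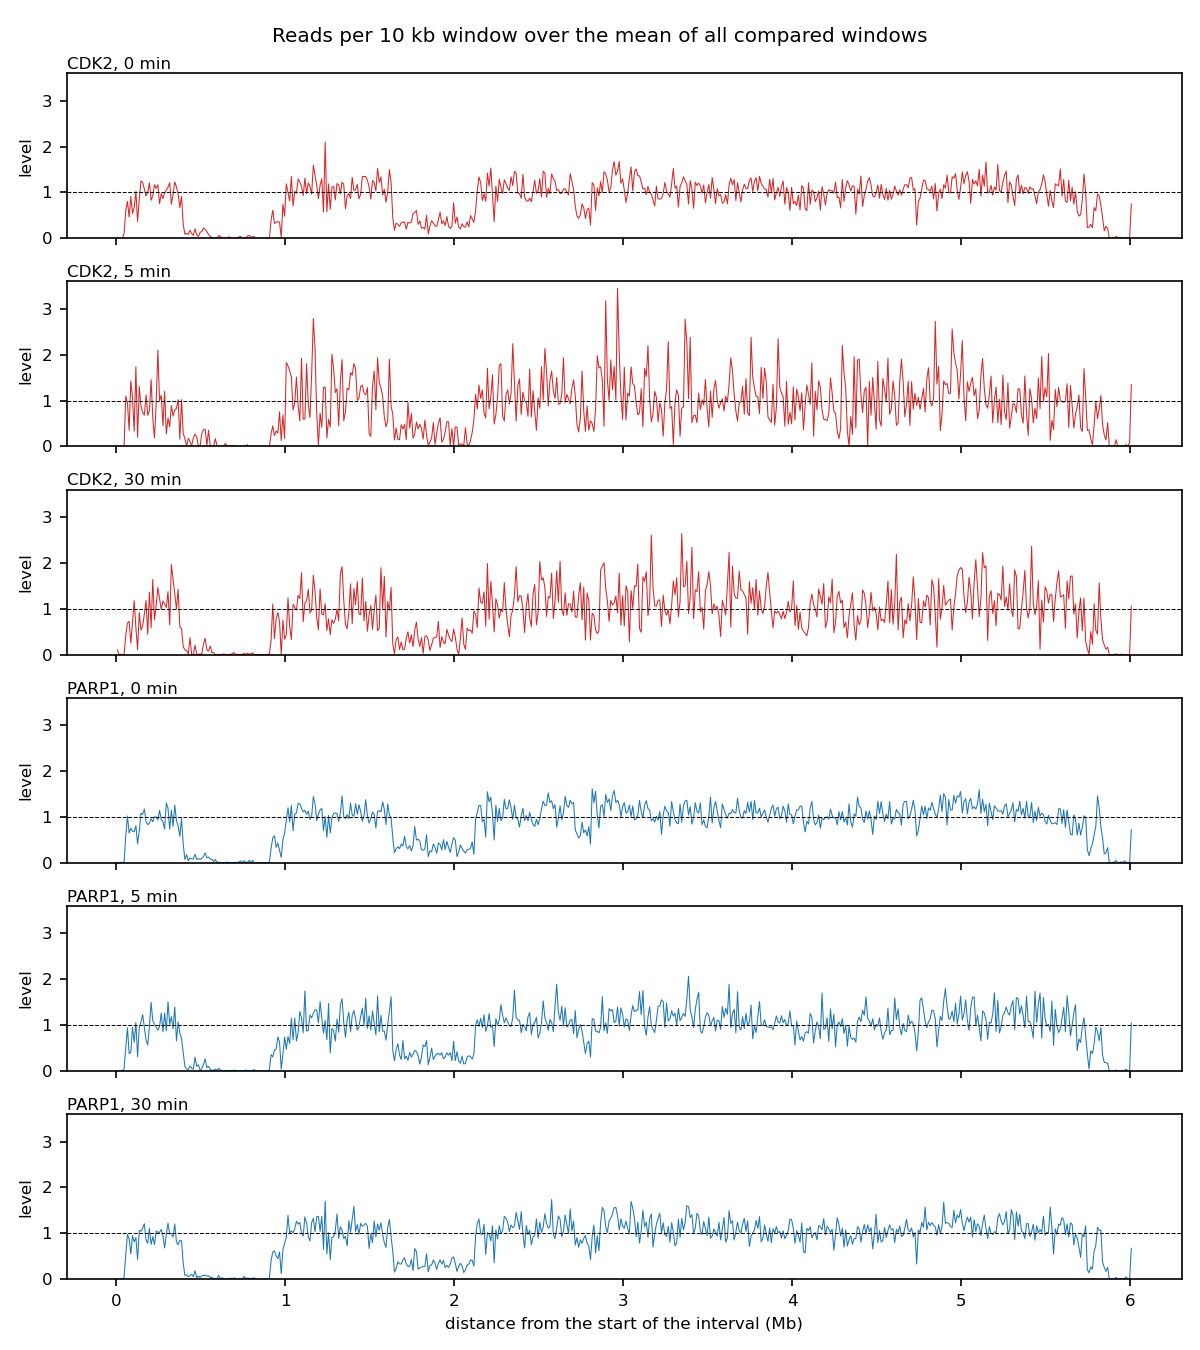
Reads in each of the 601 windows of 10 kb, over the mean of all compared windows of that library (vertical axis; 1 is the dashed line), against distance from the start of the interval in Mb, with 1 panel per library. Every library shows the same stretch of 490 kb at a level of 0.309 to 0.357 near 2 Mb, and CDK2 at 5 and 30 min show the widest scatter.

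**Figure D2:**
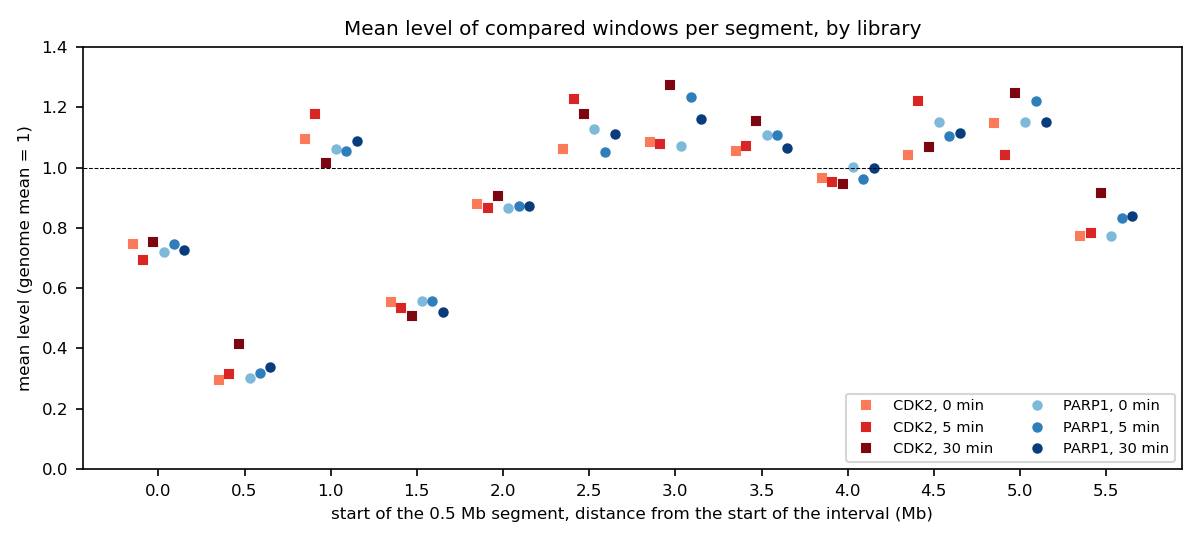
Mean level of the member windows in 12 segments of 0.5 Mb (horizontal axis, start of the segment in Mb from the start of the interval), with 1 point per library and the genome mean at 1. In the segment from 25700001 to 26200000, which starts 3 Mb into the interval, CDK2 at 30 min is highest with 1.28, followed by PARP1 at 5 min with 1.23.

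Of the 5 deepest members 4 lay between 25590001 and 26080000. The window 25660001 to 25670000 held 237, 716 and 131 reads in CDK2 at 0, 5 and 30 min and 273, 293 and 317 in PARP1. Its CDK2 count at 5 min was the highest of any member in any library. Likewise 23860001 to 23870000 held 258, 579 and 249 CDK2 reads and 289, 265 and 302 PARP1 reads. The other 3 of the 5 deepest, 26070001 to 26080000, 25590001 to 25600000 and 26060001 to 26070000, had means of 299 to 320 reads. CDK2 at 5 min held the most reads in each of these 5 windows, but they were chosen by a mean that includes this library of widest scatter, so that follows in part from the choice. The 5 members of lowest mean, 11 to 14.2 reads, all lay between 23120001 and 23260000.

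The interval as a whole was set against the rest of its own chromosome and against another imprinted region. Against the 7237 other compared windows of chromosome 15, none of the 9 comparisons left a widened 95% interval clear of 1. PARP1 reads in the interval, relative to the rest of the chromosome, had a ratio of 0.981 (0.956 to 1.01) at 5 against 0 min and 0.977 (0.955 to 1.00) at 30 against 0 min. For CDK2 the ratio was 1.04 (0.992 to 1.09) at 5 against 0 min and 1.02 (0.981 to 1.06) at 30 against 0 min. Between 30 and 5 min it was 0.996 (0.970 to 1.02) for PARP1 and 0.981 (0.926 to 1.04) for CDK2. For CDK2 over PARP1 it was 0.979 (0.955 to 1.00), 1.04 (0.990 to 1.09) and 1.02 (0.984 to 1.06) at 0, 5 and 30 min. These ratios are independent of how libraries are scaled. The value for PARP1 at 30 against 0 min sits at the edge, as it fell to 0.972 (0.949 to 0.996) without 500 kb at each end.

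The first 3 Mb of chromosome 11, which hold the imprinted domains of band 11p15.5, moved apart from the 15q interval. PARP1 reads there had a depth-scaled ratio of 1.26 at 5 against 0 min, where the 15q interval had 1.01 (widened 0.989 to 1.04), so the 15q interval stood at 0.804 (0.765 to 0.845) of it. At 30 against 0 min the PARP1 ratio was 1.01 in the 15q interval and 1.15 on chromosome 11, a quotient of 0.876 (0.837 to 0.917). CDK2 at 30 against 0 min was further apart, with 1.06 (1.01 to 1.10) in the 15q interval and 1.45 on chromosome 11, a quotient of 0.726 (0.674 to 0.782). CDK2 at 5 against 0 min did not part them, with 1.10 (0.993 to 1.21), nor did CDK2 over PARP1 at 0 min, with 0.974 (0.927 to 1.02). The 15q members held between 1.23 and 1.86 times as many reads per window as the 278 chromosome 11 windows in the 6 libraries. Among 1 Mb segments of the genome, 58.6% were beyond 1 in depth-scaled ratio for PARP1 at 5 against 0 min. At 30 against 0 min it was 50.2% for PARP1 and 53.1% for CDK2. No genome share is given for quotients of 2 places, and the source of the difference was not tested.

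**Figure D3:**
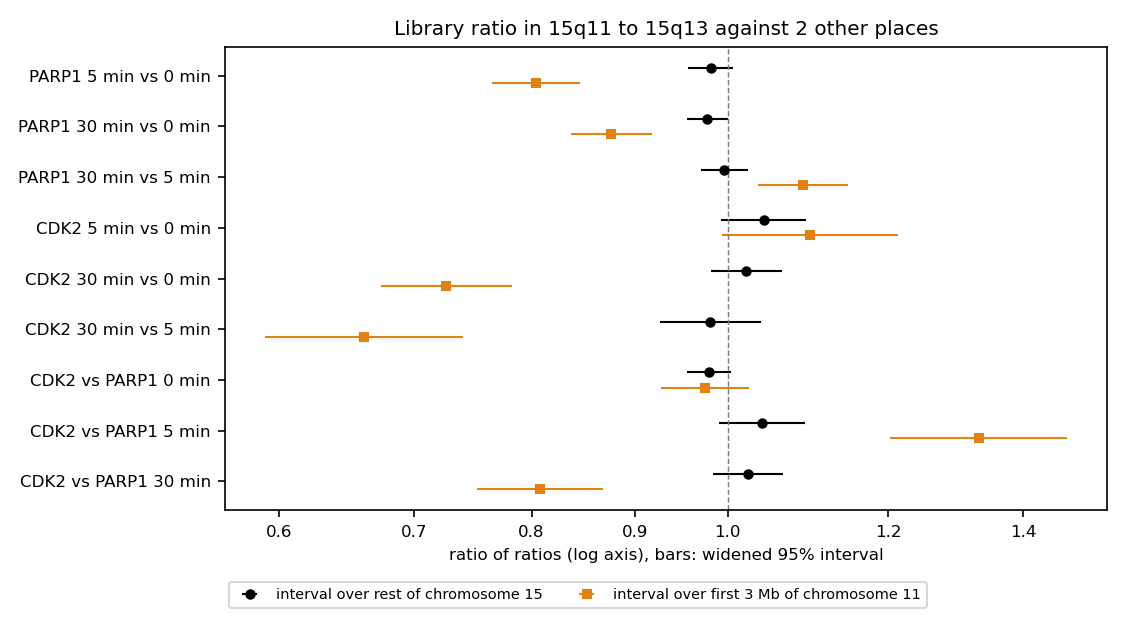
Ratio of the first to the second library in the 15q11 to 15q13 interval, divided by the same ratio in the rest of chromosome 15 (circles) and in the first 3 Mb of chromosome 11 (squares), for 9 comparisons on a log axis. Bars are widened 95% intervals. All 9 circles have bars that reach 1, and 7 of 9 squares do not, the lowest being 0.661 for CDK2 at 30 against 5 min.

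PARP1 at 5 min was called against 0 min in 14 of 547 members. Calling a window needed a depth-scaled change of 2-fold or more in either direction together with a Benjamini-Hochberg adjusted p under 0.05 in the exact binomial test (2-sided, all compared windows). By this rule 7 of 547 members were higher at 5 min, against 0.893% of all compared windows, and 7 were lower, against 1.73%, or 2.62% in both directions together. The window 25300001 to 25310000 held 397 reads at 5 min against 155 at 0 min, a ratio of 2.44 (95% interval 2.02 to 2.96, counting error only). The window 25920001 to 25930000 held 326 reads at 5 min against 123 at 0 min, a ratio of 2.53 (2.05 to 3.14). In both the PARP1 count at 30 min, 254 and 228 reads, lay between. The third named window, 24710001 to 24720000, lay within the low stretch and held 88 reads at 5 min against 27 at 0 min, a ratio of 3.11 (2.00 to 4.98). Among the lower windows 24490001 to 24500000, also in the low stretch, held 31 reads at 5 min against 94 at 0 min (0.314, 0.202 to 0.476). The other 2 named lower windows had 9 reads each at 5 min. Of the 14 called members, 8 lay in the low stretch, which is 16.3% of its 49 windows, against 1.205% of the other members.

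In blocks of 100 kb, which held at least 200 reads on average, PARP1 at 5 min rose over 0 min in 4 of 54 blocks, against 9.87% of 27937 blocks of the genome, and fell in 6, against 8.3%, together 18.2%. A block was called where its widened 95% interval lay wholly on one side of 1. Of the 4 higher blocks, 3 adjoined each other from 25900001 to 26200000. They held 2740, 2793 and 2486 reads at 5 min against 2084, 2212 and 1995 at 0 min. Their ratios were 1.25 (1.06 to 1.479), 1.204 (1.02 to 1.42) and 1.19 (1.00 to 1.41). The fourth, 28300001 to 28400000, had 1.25 (1.04 to 1.49). The lower blocks lay apart from each other, from 23700001 to 23800000 with 0.803 (0.667 to 0.968) to 28500001 to 28600000, whose 7 member windows held 702 reads at 5 min against 943 at 0 min, a ratio of 0.710 (0.528 to 0.954). The highest ratio, 1.29 at 24500001 to 24600000 in the low stretch, had an interval that held 1 (0.955 to 1.75). When scaled on the 20% of windows with the lowest means the split turned to 7 higher and 1 lower, and with blocks shifted by 50 kb 2 were higher and 1 lower. Among 6 segments of 1 Mb, 2 had a widened interval above 1, led by 25700001 to 26700000 with 1.07 (1.02 to 1.13), and none below, whereas 58.6% of such segments of the genome were beyond 1 in either direction. Relative to the rest of chromosome 15 that segment stood at 1.04 (0.986 to 1.10), and 2 others were lower, at 24700001 with 0.933 (0.881 to 0.989) and at 26700001 with 0.929 (0.879 to 0.983). Within the first of these 3, the 0.5 Mb from 25700001 to 26200000 had 1.15 (1.07 to 1.24), and 1.12 (1.03 to 1.202) over the rest of the chromosome. It is 1 picked segment, and no genome share is given for segments of 0.5 Mb or for ratios over the rest of the chromosome.

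PARP1 at 30 min had 5 called members against 0 min. Of these 1 was higher, against 0.406% of all windows, and 4 lower, against 0.587%, and scaling on the 20% of windows with the lowest means made this 3 and 3. The higher one, 23660001 to 23670000, held 135 reads at 30 min against 54 at 0 min, a ratio of 2.20 (1.59 to 3.07). It was the 1 member called in the same direction in all 4 comparisons with 0 min, and it lay in the 5 windows of low level from 23630001 to 23680000. PARP1 held 54, 133 and 135 reads there at 0, 5 and 30 min, and CDK2 57, 156 and 104. The 0 min libraries were thus the lowest of both antibodies. The ratios were 2.35 and 2.14 at 5 min for PARP1 and CDK2, and 2.05 for CDK2 at 30 min. Pairs that share a 0 min library are not separate evidence, and the 4 calls were all lost once the counts were divided by the dispersion of the comparison, the robust variance around the local ratio over 20 windows on each side.

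The foremost lower window at 30 min, 25530001 to 25540000, was the 1 member still called after that division, of 9 in the genome (0.00323% of windows). PARP1 held 312 reads there at 0 min, 182 at 5 min and 131 at 30 min, which is 5.59, 3.11 and 2.06 RPM (reads per 1000000 reads of the library). The ratio was 0.369 at 30 against 0 min, with a 95% interval of 0.231 to 0.578 after the division. CDK2 held 98, 168 and 77 reads, or 2.17, 2.91 and 1.92 RPM, so the PARP1 library of 0 min stood above the other 5. The windows beside it did not follow. The next lower one, 25520001 to 25530000, had 4.24 RPM for PARP1 at 30 min against 4.70 at 0 min, and the next higher one 3.39 against 3.69. At 25510001 to 25520000 PARP1 had 3.33 RPM at 30 min against 5.79 at 0 min. The same window was called lower for CDK2 than for PARP1 at 0 min, with 98 against 312 reads (0.388, 0.306 to 0.489), which rests on the same PARP1 library and did not pass the division by the dispersion.

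**Figure D4:**
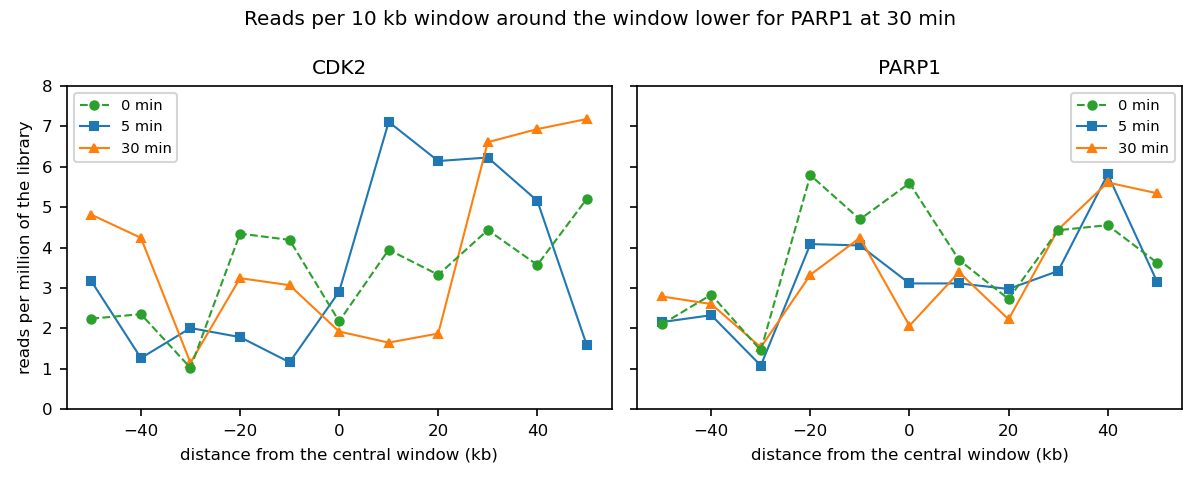
Reads per 1000000 reads of the library (vertical axis, RPM) in 11 windows of 10 kb centred on 25530001 to 25540000, against distance in kb, with CDK2 on the left, PARP1 on the right and 1 line per time. In the central window PARP1 is at 5.59 at 0 min, 3.11 at 5 min and 2.06 at 30 min, while the lines of PARP1 lie closer together in the windows directly beside it.

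In 100 kb blocks PARP1 at 30 min rose over 0 min in 2 of 54, against 5.97% in the genome, and fell in 0, against 5.56%. These were 26100001 to 26200000 with 1.17 (1.00 to 1.37) and 28200001 to 28300000 with 1.18 (1.00 to 1.38). None of the 6 segments of 1 Mb was beyond 1 in either direction, against 50.2% of the genome. Between 30 and 5 min, 7 members were higher and 8 lower for PARP1, against 1.3% and 0.8% of all windows, together 2.1%. The window 25470001 to 25480000 held 217 reads at 30 min against 79 at 5 min (2.53, 1.95 to 3.32) and 143 at 0 min. In the other direction 23220001 to 23230000 held 19 reads at 30 min against 55 at 5 min (0.318, 0.178 to 0.545). The block 23700001 to 23800000 was the 1 of 54 that was higher at 30 than at 5 min, with 1.28 (1.06 to 1.55), where 1.21% of blocks did in the genome, and 0 fell, against 1.53%, together 2.74%.

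CDK2 at 5 min was called higher than at 0 min in 30 members and lower in 80, against 6.21% and 16.2% of all windows. Scaled on the 20% of windows with the lowest means instead of by totals, the split became 107 higher and 52 lower. The shares over all windows are for scaling by totals. None is given under the other scaling, in this comparison or in the others, for windows or for blocks. Dividing the counts by the dispersion left 0 members called, against 0.000359% of all windows. The dispersion of this comparison was 23.3, so few counts per window remained. The 0 calls therefore cannot tell changed windows from unchanged ones. The 3 higher windows named were 23240001 to 23250000 with 73 reads at 5 min against 13 at 0 min (4.38, 2.41 to 8.62), 28210001 to 28220000 with 420 against 113 (2.90, 2.35 to 3.603), and 27430001 to 27440000 with 186 against 46 (3.16, 2.27 to 4.46). Their CDK2 counts at 30 min were 11, 162 and 47. The foremost lower window, 27140001 to 27150000, held 0 reads at 5 min against 201 at 0 min. With a floor of 3 counts in place of the 0 it was 85.8-fold lower. The upper bound of its ratio was 0.0145 for counting error only and 0.395 after division by the dispersion. The window held 85 CDK2 reads at 30 min, and 191, 241 and 270 PARP1 reads at 0, 5 and 30 min. The window 27030001 to 27040000 held 0 CDK2 reads at 5 min against 189 at 0 min, but 123 at 30 min. At 5 min it was 80.7-fold lower with the same floor. The upper bound of its ratio was 0.0154, and 0.457 after that division. In both windows the CDK2 library of 5 min alone was empty. The third, 24690001 to 24700000, held 1 read at 5 min against 125 at 0 min (0.00624, 0.000157 to 0.0354).

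Empty members occurred only in the 2 CDK2 libraries after hormone, 3 at 5 min (0.548%, against 1.43% of all compared windows) and 4 at 30 min (0.731%, against 0.211%). The third empty window at 5 min, 23110001 to 23120000, held 17 CDK2 reads at 0 min. Those at 30 min had means of 11.3 to 33.7 reads over the 6 libraries. In 100 kb blocks CDK2 at 5 min rose over 0 min in 1 of 54, against 2.3% in the genome, and fell in 0, against 1.51%, together 3.81%. The block was 27600001 to 27700000, with 1.37 (1.04 to 1.81). The lowest ratio, 0.511 at 24700001 to 24800000 in the low stretch, had an interval that held 1 (0.227 to 1.15). Taking those lowest-mean windows as the base, which raises all CDK2 log2 ratios of this comparison by 0.38, it was 17 blocks higher. No segment of 1 Mb was beyond 1, against 8.78% in the genome.

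CDK2 at 30 min was called higher than at 0 min in 31 members, against 5.46% of all windows, and lower in 54, against 11.5%. Scaled on the lowest-mean windows it was 40 and 41. The window 25860001 to 25870000 held 375 reads at 30 min against 155 at 0 min (2.72, 2.25 to 3.30) and 111 at 5 min. There PARP1 held 183, 206 and 324 reads at 0, 5 and 30 min. The window 25440001 to 25450000 held 226 CDK2 reads at 30 min against 83 at 0 min (3.06, 2.37 to 3.99), and 23020001 to 23030000 held 283 against 120 (2.65, 2.14 to 3.31). The lower windows included 28160001 to 28170000, with 17 reads at 30 min against 172 at 0 min (0.111, 0.0633 to 0.183). At 5 min CDK2 held 171 reads there, almost the count of 0 min. In the low stretch 24720001 to 24730000 held 0 reads at 30 min against 39 at 0 min, 11.6-fold lower with the floor of 3 counts. The upper bound of its ratio was 0.112 for counting error only and 2.72 after division by the dispersion. The last named, 28450001 to 28460000, had 1 read against 39 (0.0288, 0.000712 to 0.170). After division by the dispersion, 13.8 in this comparison, 0 members were called, with the same limit of few remaining counts.

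In 100 kb blocks CDK2 at 30 min rose over 0 min in 4 of 54, against 9.01% of the genome, and fell in 0, against 6.06%. The block 25400001 to 25500000 led, with 1575 reads at 30 min against 1020 at 0 min, a ratio of 1.74 (1.29 to 2.33). The lowest, 27000001 to 27100000, had 0.729 (0.528 to 1.01). The other 3 higher ones were 25800001 to 25900000 with 1.36 (1.05 to 1.75), 26000001 to 26100000 with 1.34 (1.05 to 1.71) and 26300001 to 26400000 with 1.36 (1.06 to 1.74). The block at 26000001 was also among those higher for PARP1 at 5 min. With median-of-ratios factors 8 blocks were higher, and with the highest window of each block left out 2 were. Of the 1 Mb segments 2 of 6 were above 1, with 1.14 (1.04 to 1.23) at 25700001 and 1.12 (1.02 to 1.23) at 27700001, and none below, against 53.1% beyond 1 in the genome. Relative to the rest of chromosome 15 the first stayed above 1, with 1.10 (1.01 to 1.196), the second had 1.08 (0.987 to 1.19), and 23700001 to 24700000 was lower with 0.894 (0.806 to 0.991). No genome share is given for these ratios over the rest. By depth-scaled ratio to 0 min the segment 25700001 to 26700000 was the highest of 6 for CDK2 at 30 min and for PARP1 at 5 min. These 2 ratios ran together genome-wide, with a Spearman correlation of 0.58 over 27937 blocks, so this is not particular to the segment. The segment was not the highest for CDK2 at 5 min, with 1.01 (0.907 to 1.115), or for PARP1 at 30 min, with 1.02 (0.974 to 1.07).

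**Figure D5:**
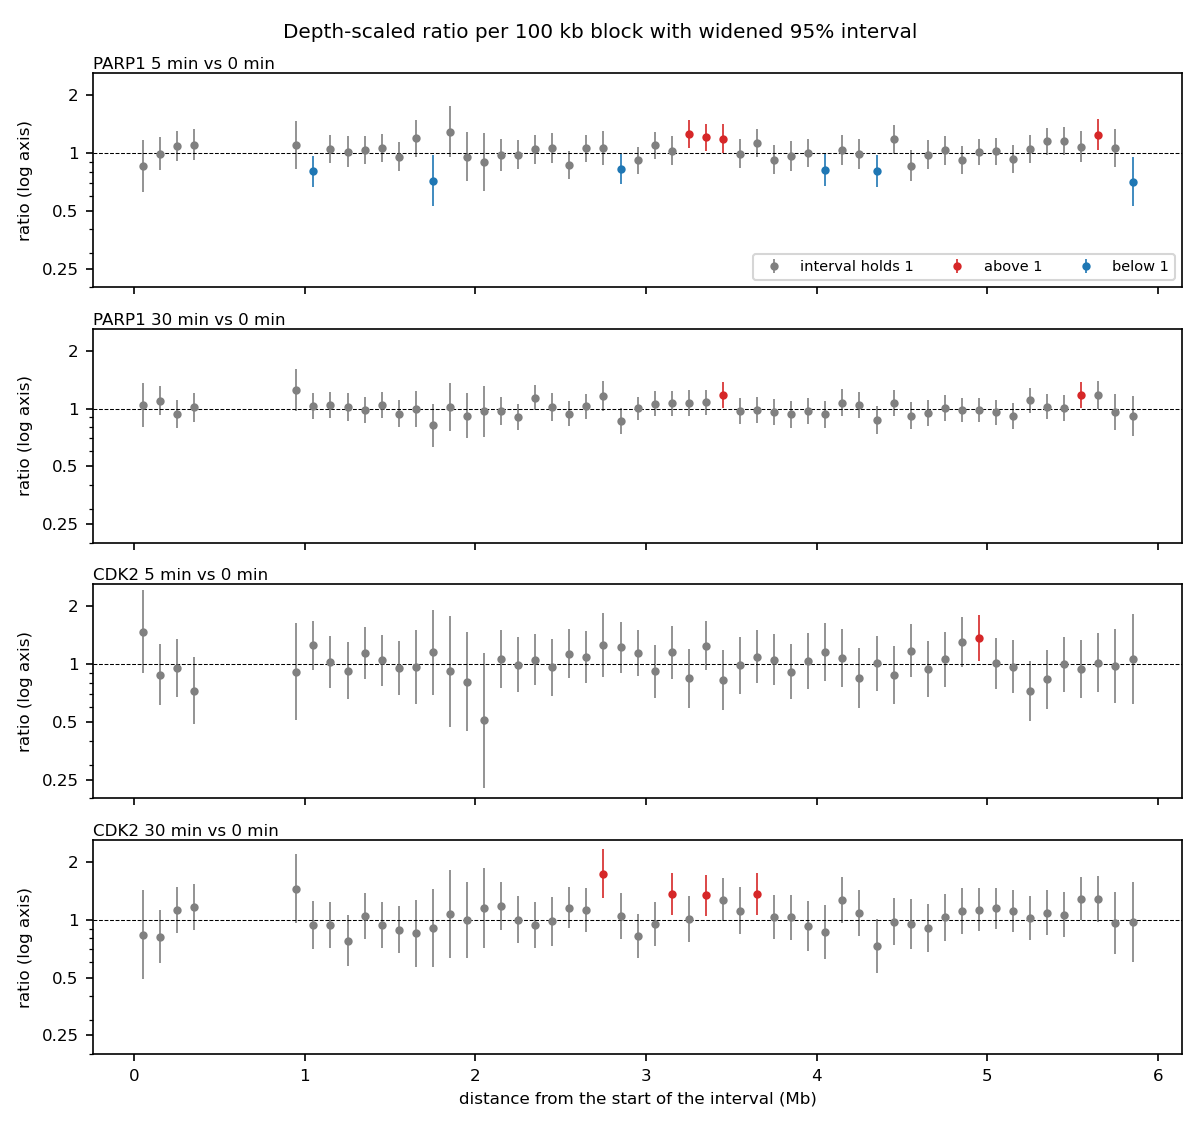
Depth-scaled ratio to 0 min (log axis) of 54 blocks of 100 kb with widened 95% intervals, against distance from the start of the interval in Mb, for PARP1 and CDK2 at 5 and 30 min. Red and blue points have intervals wholly above or below 1. The 3 adjoining blocks from 25900001 on are above 1 for PARP1 at 5 min, and CDK2 at 30 min has its highest ratio, 1.74, in the block from 25400001.

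Between 30 and 5 min CDK2 was higher in 105 members and lower in 74, against 18.4% and 15.1% of all windows, together 33.5%, and the majority turned to 75 and 101 when scaled on the lowest-mean windows. The window 27030001 to 27040000 was the foremost higher one, with 123 reads at 30 min against 0 at 5 min, at least 59.1-fold higher. The window 28450001 to 28460000 was the foremost lower one, with 1 read against 75. In 100 kb blocks 2 of 54 were higher at 30 min, against 6.39% of the genome, and 0 lower, against 6.05%. They were 23000001 to 23100000 with 1.60 (1.02 to 2.51) and 26100001 to 26200000 with 1.54 (1.03 to 2.30). Scaled on the lowest-mean windows 0 were higher and 6 lower.

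Few members were called between CDK2 and PARP1 before hormone. At 0 min CDK2 was higher than PARP1 in 2 members, against 0.442% of all windows, and lower in 3, against 0.733%. The foremost higher window was 24710001 to 24720000 in the low stretch, with 75 CDK2 against 27 PARP1 reads (3.43, 2.19 to 5.55). The PARP1 count of 27 reads is the one that also gave the call at 5 min. Of 54 blocks 0 were higher, against 0.909%, and 1 lower, against 0.884%, namely 27500001 to 27600000 with 0.818 (0.694 to 0.966). At 5 min CDK2 was higher than PARP1 in 43 members and lower in 96, against 8.02% and 17% of all windows, together 25%, or 96 and 61 when scaled on the lowest-mean windows. The window 28450001 to 28460000 held 75 CDK2 reads against 9 PARP1 reads (8.43, 4.21 to 19.2), and 27140001 to 27150000 held 0 against 241. The latter was 79.4-fold lower with the floor of 3 counts. The upper bound of its ratio was 0.0156 for counting error only and 0.593 after division by the dispersion. At 30 min 19 members were higher and 50 lower for CDK2, against 3.84% and 10.3%, or 28 and 38 with that scaling. The window 23130001 to 23140000 held 53 CDK2 against 16 PARP1 reads (5.24, 2.95 to 9.82), and 24720001 to 24730000 held 0 against 64. The latter was 13.5-fold lower with the same floor, with an upper bound of 0.0939, and 2.40 after the division. After division by the dispersion 0 members were called in any of these 3 comparisons of antibodies, against 0.00431%, 0.00287% and 0.00359% of all windows at 0, 5 and 30 min. For PARP1 at 5 against 0 min it was 0 against 0.000718%, for PARP1 at 30 against 5 min 0 against 0.000359%, and for CDK2 at 30 against 5 min 0 against 0.000718%. In blocks 1 was higher and 2 were lower at 5 min, against 5.98% and 4.92%, which turned to 12 and 0 when scaled on the lowest-mean windows. In blocks 1 was higher and 0 were lower at 30 min, against 4.11% and 2.25%. The higher one at 30 min, 26300001 to 26400000, had 2037 CDK2 against 2474 PARP1 reads, a depth-scaled ratio of 1.30 (1.02 to 1.66).

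The low stretch held more than its share of called members in the other comparisons too. Of its 49 windows 44.9% were called for CDK2 at 5 against 0 min and 36.7% at 30 against 0 min, against 17.7% and 13.5% of the other members. Over all compared windows these shares were 22.4% and 17%. Some comparisons rest on few calls. For PARP1 at 30 against 0 min 2 were lower (4.08%, against 0.602% of the other members and 0.993% of all windows). For CDK2 over PARP1 at 0 min 1 was higher (2.04%, against 0.803% and 1.17%). The limits of the stretch were chosen after the profile had been seen. The median window of the stretch held 50 to 74 reads in the 6 libraries. What this depth contributes to its calls was not tested. Among all members, 366 (66.9%) were called in none of the 4 comparisons with 0 min, 151 (27.6%) in 1 and 28 (5.12%) in 2. Over all compared windows these shares were 63.8%, 30.0% and 5.69%, with 0.484% called in 3 and 0.0460% in 4. Besides the window at 23660001, 1 member was called in 3, namely 24450001 to 24460000 in the low stretch, which was lower for PARP1 at 30 min (0.492) and for CDK2 at 5 min (0.332) and 30 min (0.323).

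Windows called for both antibodies at the same time were few. At 5 against 0 min 5 members were called for both, which is 4.55% of the CDK2 calls and 35.7% of the PARP1 calls, and 3 of them moved the same way. Genome-wide the shares were 4.10% and 35.0%. At 30 against 0 min 2 members were called for both, in the same direction, which is 2.35% of the CDK2 and 40.0% of the PARP1 calls, against 1.97% and 33.6% genome-wide. Over the 54 blocks the ratios of CDK2 and PARP1 to their own 0 min libraries had a Spearman correlation of -0.39 at 5 min and 0.29 at 30 min. Over the 27937 blocks of the genome it was -0.13 and 0.54. For PARP1 at 5 min with CDK2 at 30 min it was 0.39 over the 54 blocks and 0.58 over those of the genome. Neighbouring blocks may share base composition and copy number, which were not measured here, so they cannot be counted as independent. Across member windows the Spearman correlation between libraries ran from 0.37, for CDK2 at 30 and 5 min, to 0.67, for CDK2 and PARP1 at 0 min, each lower than the 0.42 and 0.86 of the same pairs over all compared windows.

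The standard deviation of the log2 block ratios was 0.19 in the interval and 0.20 in the genome for PARP1 at 5 against 0 min, and 0.12 and 0.16 at 30 against 0 min. For CDK2 it was 0.25 and 0.26 at 5 against 0 min, and 0.24 and 0.31 at 30 against 0 min. The median widened standard error of a block of the interval was 0.13, 0.12, 0.25 and 0.20 in these 4 comparisons. For PARP1 at 30 min and CDK2 at 5 min the standard deviation of the blocks equalled that error to the second decimal.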

How the data were processed

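The authors deposited raw read counts for 10 kb windows along the genome, with 1 column for each of the 6 ChIP-seq libraries and no normalization. The submitters' processing notes name Bowtie 1.0.0 and the build hg19 (GRCh37). The sources used here do not say how duplicate and multiply matching reads were handled. Libraries were scaled by their totals, 40097131 to 63448449 reads. Windows were compared over the whole table with the call rule stated above, and only members are reported. Intervals are exact binomial (Clopper-Pearson) for windows and cover counting error only, as no molecular identifiers are named in the labels, and log-normal with the dispersion of the single libraries for sums. The binomial test compares 2 libraries and covers counting error, and with 1 library per group no test over replicates was possible. Named windows were the 3 higher and 3 lower called members per comparison with 0 min, and 1 each for the others, whose interval bound lay farthest from 1, at most 1 per 100 kb. The 5 deepest and 5 shallowest members, the extreme blocks and members called after the dispersion were also named, and the called blocks were added after their values had been seen. Members and lists were chosen with earlier results of these data known. Alternatives used TMM factors (edgeR 4.0.16), size factors (DESeq2 1.42.0), both for scaling only, and the settings given in the closing section. The call was also run on simulated counts with Poisson scatter only. The libraries here scatter more widely than that, so the simulation cannot tell how the call performs on them. Computation used Python 3.11.15, numpy 2.4.6, scipy 1.17.1, pandas 2.3.3, matplotlib 3.10.9 and R 4.3.3. Nothing was computed on an input library.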

Additional observations from a re-analysis of the deposited data

Results flagged for a closer look

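The change of the interval relative to the rest of chromosome 15 at 5 against 0 min differed between the antibodies under that comparator. It was 1.04 for CDK2 and 0.981 for PARP1, a quotient of 1.06 with a widened 95% interval of 1.01 to 1.12. The widening covers scatter between adjacent windows, not differences between libraries over longer distances, and no genome share of such quotients is given. The quotient at 5 against 0 min was the 1 of 3 whose interval left 1, the others being 1.05 (0.998 to 1.10) at 30 against 0 min and 0.984 (0.924 to 1.05) at 30 against 5 min. With all other windows of the genome as the comparator, an alternative chosen after seeing the data, the quotient at 5 against 0 min was 1.01 (0.959 to 1.07), which held 1. The depth-scaled ratio at 5 against 0 min was 1.02 for CDK2 and 1.01 for PARP1 in the interval, and 0.984 for CDK2 and 1.03 for PARP1 in the rest of chromosome 15. Neither antibody's own ratio of the interval over that rest left 1. Each of these 4 depth-scaled ratios rests on 2 libraries, 1 per time. The interval and the rest share the 2 libraries of their antibody, so the 4 ratios are not separate evidence.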

How the results depend on the processing

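No paired analysis was possible because each antibody and time had 1 library, so no replicate could be left out either. Over the 9 comparisons, the interval relative to the rest of chromosome 15 kept its side of 1 and its call with a mean of at least 50 and without the 1% of windows of highest mean. By medians of window ratios, which carry no interval, 8 of 9 kept their side of 1 and PARP1 at 30 against 5 min did not (1.01). PARP1 at 30 against 0 min passed below 1 with 500 kb trimmed from each end (0.972) and with no count minimum (0.977). With all other windows of the genome as the comparator 4 ratios turned, namely PARP1 at 5 min (1.01) and 30 min (1.01) against 0 min, CDK2 at 30 against 5 min (1.03) and CDK2 over PARP1 at 5 min (0.992), and CDK2 at 30 against 0 min passed above 1 (1.06). That comparator, chosen after seeing the data for the quotient of CDK2 over PARP1 changes, gave 1.01 at 5 against 0 min, no longer clear of 1, 1.05 (1.00 to 1.10) at 30 against 0 min, now clear of 1, and 1.04 at 30 against 5 min, which turned. The median level was 1.09, 1.04 and 1.09 for CDK2 and 1.12, 1.09 and 1.12 for PARP1 at 0, 5 and 30 min, outside the interval of the mean level in all 6 libraries.

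At a fold limit of 1.5 the called members were 99, 41 and 86 for PARP1 at 5 against 0, 30 against 0 and 30 against 5 min, 254, 206 and 291 for CDK2, and 44, 269 and 179 for CDK2 over PARP1 at 0, 5 and 30 min. No share over all windows is given at this limit, without a count minimum or after thinning, so these numbers describe the setting and not the members. After division by the dispersion 1 was called for PARP1 at 30 against 0 min and 0 in each of the other 8. With no count minimum PARP1 at 30 against 0 min had 8. With all libraries thinned once at random to the smallest total, PARP1 at 5 against 0 min had 22. The other scalings kept all 9 numbers of called members within 1.5 times. Of 26 calls of named windows with reads in both libraries, some windows counting in several comparisons, 25 were lost after the dispersion and 26 were kept with TMM factors. The dispersion was 4.29 to 32.2 over the 9 comparisons. Dividing by it leaves few counts per window for a test over all windows, so a lost call does not show that a window was unchanged.

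Called 100 kb blocks depended on the settings, and the cause was not tested. No share over all blocks of the genome is given under these other settings. Shifted by 50 kb they were 3 for PARP1 at 5 against 0 min, 2 for CDK2 at 30 against 0 min, and 3 and 6 for CDK2 over PARP1 at 0 and 5 min. Without the highest window of each block they were 1 and 2 for PARP1 at 30 against 0 and 30 against 5 min, 2, 2 and 1 for CDK2 at 5 against 0, 30 against 0 and 30 against 5 min, and 0 for CDK2 over PARP1 at 30 min. With TMM factors they were 2 and 7 for CDK2 at 5 and 30 against 0 min and 2 for CDK2 over PARP1 at 30 min. Size factors gave 2 and 8 for CDK2 at 5 and 30 against 0 min and 5 and 3 for CDK2 over PARP1 at 5 and 30 min. Scaling on the windows of lowest mean gave 5 for PARP1 at 30 against 0 min, 17, 9 and 6 for CDK2 at 5 against 0, 30 against 0 and 30 against 5 min, and 12 (all higher) and 6 for CDK2 over PARP1 at 5 and 30 min.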
